A study of Mus musculus with 10 samples.

Results

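Cytosolic heat shock proteins are described here by the transcripts of 10 genes, taken by name from the 54532 genes of the deposited expression table. They are the HSP70 genes *Hspa1a*, *Hspa1b* and *Hspa8*, the HSP90 gene *Hsp90aa1*, the small heat shock protein genes *Hspb1* and *Cryab*, the co-chaperone genes *Bag3*, *Dnajb1* and *Hsph1*, and *Hsf1*, which encodes a heat shock transcription factor. The rule uses names and not values, and all 10 were among the 24508 genes that could be tested.

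The study exposed albino BALB/c mice to strong light to damage their retinas and measured RNA in the neural retina. All mice, 2 months of age, were first kept in the dark for 12 hr. Afterwards 5 retinas received 200 lux (normal light, NL) and another 5 received 15000 lux (light damage, LD), both for 1 day in cages that do not reflect light. The labels number them NL-1, NL-4, NL-5, NL-7 and NL-8, and LD-1, LD-4, LD-6, LD-7 and LD-8. The labels list no transgene or drug, both groups share the albino background, and the study calls the samples of a group biological replicates without tying each retina to a mouse.

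Heat shock proteins are chaperones that keep other proteins folded. HSP70 binds exposed stretches of a client, J-domain proteins such as DNAJB1 bring clients to it, and exchange factors such as BAG3 and HSPH1 (HSP110) let them go. HSP90 acts later on signaling proteins and steroid receptors, whereas small heat shock proteins hold unfolded proteins until HSP70 can act. HSF1 binds repeated GAA units, called heat shock elements, before many of these genes and raises their transcription when cytosolic proteins unfold. Some family members are made at all times (*Hspa8*, *Hsp90ab1*) and others rise under stress (*Hspa1a*, *Hspa1b*). In the retina, CRYAB, or αB-crystallin, is known as a chaperone of stressed neurons and glia as well as a lens protein.

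Levels are given as FPKM, a unit that divides reads by gene length and library size and so allows genes of different length to be compared. The deposited values resolved into whole reads, so the reads behind each value could be recovered. Depth was 21343389 to 26832535 reads for an NL retina and 18965090 to 23378090 reads for an LD retina. Fold changes are LD against NL on log2(FPKM + 0.1), a scale that understates the change of low genes. Their adjusted p-values come from limma with Benjamini-Hochberg adjustment over the 24508 genes. "Rose" or "fell" means an adjusted p under 0.01, and a gene was called changed when it also moved more than 2-fold. These p-values measure only the spread between the labelled samples. Of the 20 pairs of retinas within a group, NL-5 with NL-7, LD-1 with LD-7 and LD-4 with LD-6 were closer than the rest, with a chi-square per gene of 2.65 to 3.65 against 12.2 to 43.4, so results were also computed with these 3 pairs averaged.

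In whole retina, fewer cells of a type and less RNA per cell cannot be told apart, which holds for every level given here. The 10 genes did not move together. *Bag3* and *Cryab* rose about equally, by 1.66 and 1.64 on the log2 scale. *Hspa1a*, *Hspa1b* and *Hsp90aa1* fell, by 1.92, 0.92 and 0.52. For *Hspa8*, *Hspb1*, *Dnajb1*, *Hsph1* and *Hsf1* the test was not passed. Thus 5 of the 10 passed an adjusted p under 0.01 in limma, where 17.0% of all genes tested did. Of the 10, 2 rose and 3 fell, against 9.3% and 7.74% of all genes tested. Reads of *Hspa1a* and *Hspa1b* cannot be split safely between these copies. With the pair entered as 1 gene, 4 of 9 passed, against 4177 of 24507 genes tested. They were *Bag3*, *Cryab*, *Hsp90aa1* and the pair. *Bag3*, *Cryab* and *Hspa1a*, 3 of the 10, were called changed, against 6.51% of all genes tested (4.13% higher and 2.37% lower). In 5 of the 10 genes the groups did not overlap, against 22.4% of all genes tested. The median log2 fold change was 0.12 over the 10 genes and -0.01 over all genes tested, and the median size of the change was 0.43 and 0.25.

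**Figure D1:**
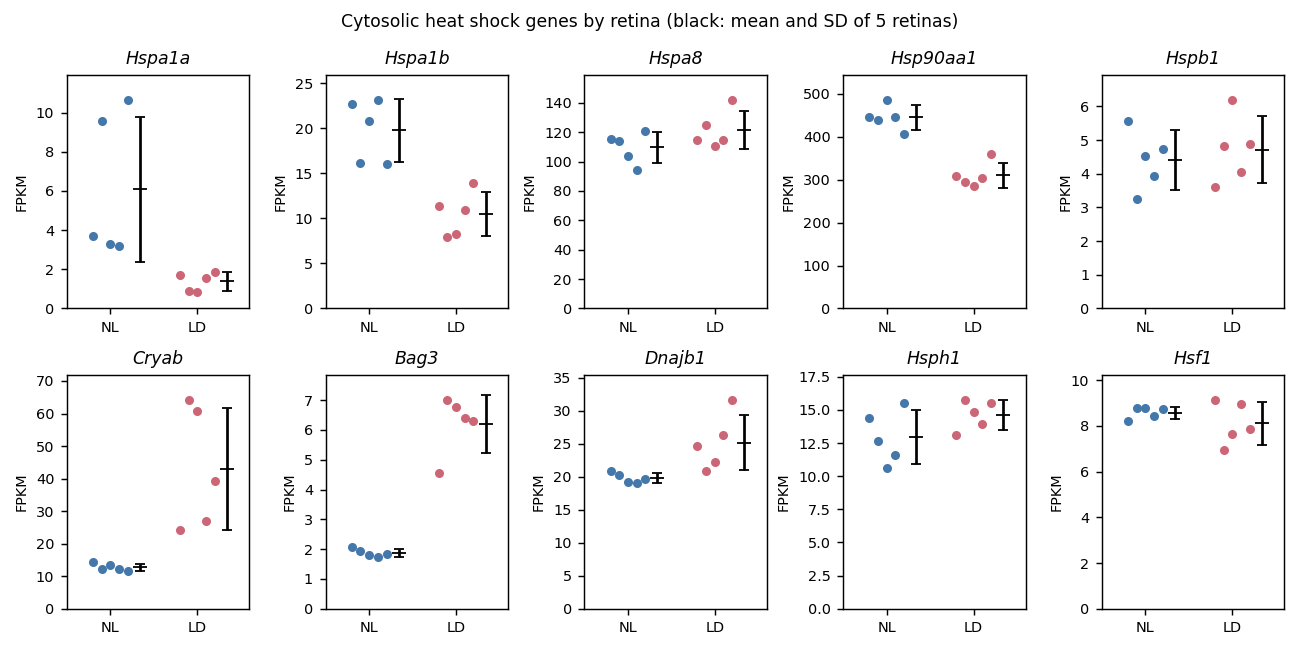
FPKM of the 10 heat shock genes (vertical axis from 0, a separate scale for each gene) in every NL and LD retina, with the mean and SD of 5 retinas in black. *Hspa1a*, *Hspa1b* and *Hsp90aa1* lay lower and *Cryab* and *Bag3* higher in all 5 LD retinas than in any NL retina, whereas the groups of the other 5 genes overlapped.

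The inducible HSP70 genes *Hspa1a* (ENSMUSG00000091971, chr17:34969190-34972156) and *Hspa1b* (ENSMUSG00000090877, chr17:34956436-34959238) are single-exon genes on the minus strand of GRCm38, 9951 bases apart. They encode nearly the same protein, and their transcripts share long stretches: of the 150-base windows of *Hspa1a*, 1074 of 2818 (38.1%) occur unchanged in *Hspa1b*. The reads of the pair can therefore not be split safely between them, and each gene's own value is uncertain. A gene on the other strand that overlaps *Hspa1a*, Gm20481, was listed at 0 reads. Their RefSeq promoters, 250 bases before to 50 bases after the start, are identical at 296 of 300 bases.

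A heat shock element is built of alternating GAA and TTC units. A pair of such units, that is GAA, any 2 bases and TTC, or TTC, any 2 bases and GAA, stood in 4946 of 32851 RefSeq promoters (15.1%) when both strands were searched. A run of 3 units, in which any 2 bases and 1 more alternating unit follow such a pair, stood in 198 promoters (0.603%). A run of 3 units thus holds 2 overlapping pairs. Promoters were given for 6 of the 10 genes, namely *Hspa1a*, *Hspa1b*, *Hspb1*, *Dnajb1*, *Hsph1* and *Bag3*. The sites below are from RefSeq on GRCm38.p6 and read on the strand of the gene. They are shown because *Hspa1a* and *Hspa1b* carry the same site. *Hspb1*, which also rises under stress in many cells, has 2 pairs at similar distances, of which the farther is shown. Capitals mark the pair of units.
Hspa1a (chr17:34972242-34972271, minus strand): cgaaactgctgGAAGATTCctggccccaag
Hspa1b (chr17:34959324-34959353, minus strand): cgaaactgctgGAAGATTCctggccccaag
Hspb1 (chr5:135887791-135887820, plus strand): cttcaacaagaGAAGTTTCcagatgggggc
The pair of units begins 104 bases before the start of transcription in both *Hspa1a* and *Hspa1b*, and 117 bases before it in *Hspb1*, which has a further pair 97 bases before its start. Only *Hsph1* among the 6 held a run of 3 units, located after the start. *Hsph1*, with 2 promoters listed, also held a pair that begins 33 bases before a start. *Bag3* held a single pair after the start. No pair of units was found in the *Dnajb1* window. A match is a description of letters in the reference, and binding was not measured.

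Transcripts of *Hspa1a* were at 3.70, 9.55, 3.29, 3.19 and 10.7 FPKM in NL-1, NL-4, NL-5, NL-7 and NL-8. In LD-1, LD-4, LD-6, LD-7 and LD-8 they were at 1.73, 0.914, 0.844, 1.54 and 1.86 FPKM, from 55 to 125 reads. All LD retinas were lower than any NL retina, but NL-4 and NL-8 stood far above the other NL retinas. The mean went from 6.08 ± 3.70 (SD, n = 5) to 1.38 ± 0.470 FPKM (SD, n = 5), and the log2 fold change was -1.92 (SE 0.39, adjusted p = 0.00408, limma). Averaging the closest pairs gave -2.01 with an adjusted p of 0.0260, and without LD-4 or without LD-6 it was -1.80 and -1.78, both with an adjusted p of 0.0119, so the call rests on these retinas.

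Of the pair, *Hspa1b* was the more abundant in every retina. It was at 22.8, 16.2, 20.8, 23.2 and 16.0 FPKM in the NL retinas, in the same order, and at 11.4, 7.92, 8.31, 10.9 and 13.9 FPKM in the LD retinas. The groups did not overlap, and here NL-4 and NL-8 were the lowest of the NL retinas. Mean *Hspa1b* fell from 19.8 ± 3.49 to 10.5 ± 2.46 FPKM (SD, n = 5 each), and the log2 fold change was -0.92 (SE 0.17, adjusted p = 0.00217, limma). This is under 2-fold. Its adjusted p was 0.0331 when the closest pairs were averaged.

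NL-4 and NL-8, the NL retinas high in *Hspa1a*, were low in *Hspa1b*, and the sum of the pair was nearly the same in all NL retinas. In the LD retinas LD-8 was the highest and LD-4 and LD-6 were the lowest in both genes. Summed over both genes and divided by their mean length, the reads gave 25.9, 25.5, 23.6, 25.8 and 26.5 FPKM in the NL retinas. In the LD retinas the sum was 12.9, 8.63, 8.94, 12.2 and 15.4 FPKM. The lowest sums were those of LD-4 and LD-6. The mean of the sum went from 25.5 ± 1.11 to 11.6 ± 2.85 FPKM (SD, n = 5 each). The log2 difference was -1.16 (SE 0.16, two-sided exact permutation p = 0.00794, the smallest that 5 against 5 retinas can give). Entered as 1 gene into the limma model, the pair fell by 1.16 on the log2 scale with an adjusted p of 1.81e-04. It was 1.10 lower with the closest pairs averaged (log2 difference -1.10, exact permutation p = 0.0286, the smallest that design allows).

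How the reads fell on the copies differed between retinas. *Hspa1a* held 38.5% of the pair's reads in NL-4 (95% Wilson interval 36.1 to 40.9%) and 41.3% in NL-8. It held 12.7 to 14.7% in NL-1, NL-5 and NL-7. After LD it held 9.71 to 13.8%. The groups overlapped in this share (two-sided exact permutation p = 0.0238). The interval covers counting error only.

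**Figure D2:**
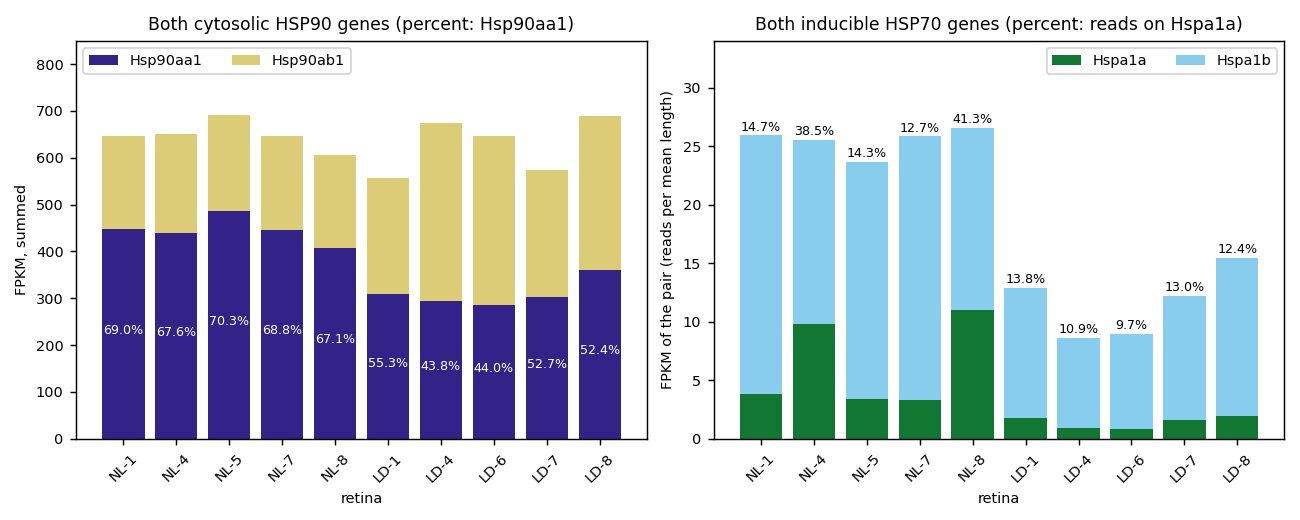
Stacked bars for each retina: left, FPKM of *Hsp90aa1* and *Hsp90ab1* with the percentage from *Hsp90aa1*; right, FPKM of the *Hspa1a* and *Hspa1b* pair (reads per mean length) with the percentage of reads on *Hspa1a*. On the deposited scale the HSP90 sum stayed within 557 to 692 FPKM. The *Hsp90aa1* share was 67.1 to 70.3% in NL and 43.8 to 55.3% in LD. The summed pair was 23.6 to 26.5 FPKM in NL and 8.63 to 15.4 FPKM in LD.

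*Hspa8* (ENSMUSG00000015656, chr9:40800984-40810087), the constitutive HSP70 that also strips clathrin from vesicles, was the most abundant HSP70 transcript. It was at 115, 114, 104, 94.5 and 121 FPKM in the NL retinas. The LD retinas had 115, 125, 110, 115 and 142 FPKM. The groups overlapped. The log2 fold change was 0.15 (95% interval -0.05 to 0.34, adjusted p = 0.252, limma), which bounds a rise at 1.26-fold on the deposited scale only. Without the authors' scaling factor per retina it was 0.28 (adjusted p = 0.0289, limma). Small nucleolar RNA genes within *Hspa8* were listed at 0 reads.

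The response of the inducible pair and that of *Hspa8* differed. The log2 ratio of the pair to *Hspa8* within a retina was lower in LD by 1.31 (log2 difference -1.31, SE 0.15, adjusted exact permutation p = 0.0111 over 7 comparisons of relatives). The pair made up 18.9 ± 1.42% of the HSP70 sum in NL and 8.69 ± 1.61% in LD (SD, n = 5 each, exact permutation p = 0.00794). The HSP70 sum itself was 135 ± 10.9 FPKM in NL and 133 ± 14.7 FPKM in LD (log2 difference -0.03, 95% interval -0.22 to 0.17, exact permutation p = 0.794). This sum depends on the factor per retina and was computed on the deposited scale only.

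*Hsp90aa1* (ENSMUSG00000021270, chr12:110690605-110702728, minus strand), the stress-responsive cytosolic HSP90, was the most abundant of the 10 genes. It stood at 447, 440, 487, 445 and 407 FPKM in the NL retinas. In the LD retinas it stood at 308, 295, 285, 303 and 361 FPKM. No LD retina reached the lowest NL retina. The mean fell from 445 ± 28.3 to 310.4 ± 29.6 FPKM (SD, n = 5 each), and the log2 fold change was -0.52 (SE 0.09, adjusted p = 0.00112, limma). Quantile normalization gave -0.22 with an adjusted p of 0.0972, and averaging the closest pairs gave -0.47 with an adjusted p of 0.0294.

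*Hsp90ab1* (ENSMUSG00000023944, chr17:45567775-45573271), its constitutive relative, moved the other way. The NL retinas had 200.4, 210.5, 205, 202 and 199 FPKM of it. The LD retinas had 249, 379, 362, 272 and 328 FPKM. It rose by 0.63 on the log2 scale (SE 0.11, adjusted p = 0.00222, limma), with no overlap, and LD-4 and LD-6 were the highest. None of the 150-base windows of *Hsp90aa1* occurred in *Hsp90ab1*, so reads of that length tell these genes apart.

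Summed, the HSP90 genes were at 649 ± 30.3 FPKM in NL and 628 ± 59.5 FPKM in LD (SD, n = 5 each). The log2 difference of the sum was -0.05 (95% interval -0.21 to 0.11, exact permutation p = 0.476). The share of *Hsp90aa1* in the sum was 68.6 ± 1.26% in NL and 49.6 ± 5.37% in LD (exact permutation p = 0.00794). Within a retina the log2 ratio of *Hsp90aa1* to *Hsp90ab1* was lower in LD by 1.15 (log2 difference -1.15, SE 0.14, adjusted exact permutation p = 0.0111). A ratio within a retina does not depend on a scaling factor per retina. The HSP90 sum does depend on it and was computed on the deposited scale only.

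*Cryab* (ENSMUSG00000032060, chr9:50751325-50756636) was even in the NL retinas, at 14.4, 12.2, 13.5, 12.1 and 11.5 FPKM. It varied widely after LD, at 24.1, 64.2, 60.7, 26.9 and 39.2 FPKM. Even so, the lowest LD retina, LD-1, was above every NL retina, and LD-4 and LD-6 were the highest. The mean rose from 12.7 ± 1.17 to 43.0 ± 18.7 FPKM (SD, n = 5 each), and the log2 fold change was 1.64 (SE 0.26, 95% interval 1.06 to 2.21, adjusted p = 9.15e-04, limma). It was called in each fit that left out 1 retina, and with the closest pairs averaged (1.64, adjusted p = 0.00559).

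The overlapping small heat shock gene *Hspb2*, on the other strand, had at most 2 reads in any retina. Of 15 lens markers, 7 were high enough to test. Of these 1, the β-crystallin gene *Crybb3*, rose (log2 fold change 1.43, adjusted p = 0.00534, limma), against 9.3% of all genes tested. The summed level of the 15 markers was 1.40 to 3.01 FPKM in NL and 2.07 to 3.98 FPKM in LD, far under that of *Cryab*. *Cryaa*, the lens α-crystallin and closest relative of *Cryab*, was at or under 0.0910 FPKM in all 10 retinas. It and 2 further lens markers were under 0.1 FPKM in every retina.

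*Hspb1* (ENSMUSG00000004951, chr5:135887919-135889563), or HSP25, another small heat shock gene, did not move with *Cryab*. Its NL values were 5.58, 3.24, 4.54, 3.93 and 4.74 FPKM. Its LD values were 3.62, 4.83, 6.20, 4.05 and 4.88 FPKM. The groups overlapped almost fully. The log2 fold change was 0.10 (95% interval -0.27 to 0.46, adjusted p = 0.723, limma), from 71 to 143 reads per retina, and it was -0.01 without NL-4 or without LD-6. The log2 ratio of *Cryab* to *Hspb1* was 1.54 higher in LD (SE 0.22, adjusted exact permutation p = 0.0111).

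*Bag3* (ENSMUSG00000030847, chr7:128523616-128546981) encodes an exchange factor that links HSP70 to small heat shock proteins and to autophagy of damaged proteins. It had the lowest NL level of the 10 genes, at 2.06, 1.95, 1.81, 1.75 and 1.83 FPKM, from 94 to 121 reads. The LD retinas had 4.55, 7.01, 6.77, 6.39 and 6.31 FPKM, from 284 to 388 reads. The groups were far apart, and the spread within NL was small. The mean rose from 1.88 ± 0.126 to 6.21 ± 0.970 FPKM (SD, n = 5 each). The log2 fold change of 1.66 (SE 0.11, 95% interval 1.41 to 1.91, adjusted p = 3.18e-06, limma) ranked 216 by p among all genes tested. A transcript of unknown coding status that overlaps *Bag3*, 2610306O10Rik, had at most 6 reads in any retina.

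The family member *Bag1*, which is made at all times, was at 51.7 ± 4.45 FPKM in NL and 55.2 ± 5.76 FPKM in LD (SD, n = 5 each, adjusted p = 0.459, limma). The log2 ratio of *Bag3* to *Bag1* was 1.57 higher in LD (SE 0.12, adjusted exact permutation p = 0.0111).

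*Dnajb1* (ENSMUSG00000005483, chr8:83608193-83612653), or HSP40, was at 20.9, 20.2, 19.2, 19.1 and 19.7 FPKM in the NL retinas. In the LD retinas it was at 24.7, 20.9, 22.3, 26.3 and 31.7 FPKM. The lowest LD retina, LD-4, lay at the level of the highest NL retina. The log2 fold change was 0.33 (SE 0.10, 95% interval 0.11 to 0.54, adjusted p = 0.0280, limma), which missed the threshold. It passed without the factor per retina (0.46, adjusted p = 0.00320). Its log2 ratio to *Dnaja1*, another cytosolic J-domain gene, was 0.20 higher in LD (SE 0.12, adjusted exact permutation p = 0.167), and the groups overlapped.

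*Hsph1* (ENSMUSG00000029657, chr5:149614287-149636376, minus strand), or HSP110, was at 14.4, 12.7, 10.6, 11.6 and 15.5 FPKM in the NL retinas. In the LD retinas it was at 13.1, 15.8, 14.9, 13.9 and 15.5 FPKM. The groups overlapped, and the log2 fold change was 0.18 (95% interval -0.04 to 0.41, adjusted p = 0.216, limma). Without the factor per retina it was 0.32 (adjusted p = 0.0402, limma). *Hspa4*, its relative, was at 41.0 ± 2.00 FPKM in NL and 42.5 ± 1.47 FPKM in LD (SD, n = 5 each). The log2 ratio of *Hsph1* to *Hspa4* was 0.13 higher in LD (SE 0.10, adjusted exact permutation p = 0.206).

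*Hsf1* (ENSMUSG00000022556, chr15:76477422-76501913), the main activator of the heat shock response, is controlled largely at the protein level, which these data do not measure. Its transcript was at 8.19, 8.77, 8.79, 8.42 and 8.73 FPKM in NL. In LD it was at 9.13, 6.93, 7.63, 8.97 and 7.88 FPKM. The LD values surrounded the NL values. The log2 fold change was -0.09 (95% interval -0.25 to 0.08, adjusted p = 0.433, limma), and it was 0.04 without the factor per retina.

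*Hsf2* (ENSMUSG00000019878, chr10:57486385-57513135), a second heat shock factor with a role in brain development and spermatogenesis, fell. It was at 5.82, 5.52, 5.89, 6.06 and 6.15 FPKM in the NL retinas and at 3.64, 3.05, 3.51, 3.63 and 3.82 FPKM in the LD retinas. The groups were well apart. The log2 fold change was -0.72 (SE 0.07, adjusted p = 2.78e-05, limma). Within a retina the log2 ratio of *Hsf1* to *Hsf2* was 0.64 higher in LD (SE 0.06, adjusted exact permutation p = 0.0111).

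**Figure D3:**
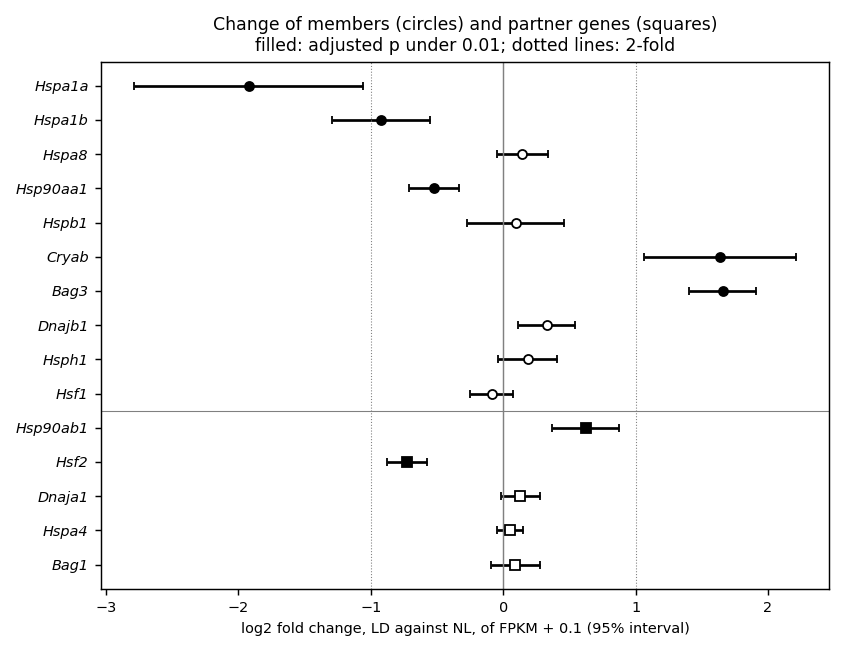
Log2 fold change of LD against NL on FPKM + 0.1 with its 95% interval for the 10 heat shock genes (circles) and 5 partner genes (squares). Filled symbols have an adjusted p under 0.01 in limma, and dotted lines mark 2-fold. The intervals of *Bag3* (1.41 to 1.91) and *Cryab* (1.06 to 2.21) lie wholly past 2-fold, and that of *Hspa1a* (-2.79 to -1.06) does so downward.

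Over the 7 comparisons of relatives, 5 passed an adjusted exact permutation p under 0.05 and 2, *Dnajb1* with *Dnaja1* and *Hsph1* with *Hspa4*, did not. Relative to its partner, the stress-responsive gene was lower in LD for HSP70 and HSP90, and the first gene of the comparison was higher for *Cryab* with *Hspb1*, *Bag3* with *Bag1* and *Hsf1* with *Hsf2*. These 5 differences had an adjusted exact permutation p of 0.0400 with the closest pairs averaged. It rests on 0.0286, the smallest exact permutation p of that design. In the main test each of the 5 likewise had the smallest exact permutation p, 0.00794, so these p-values do not rank the differences.

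Beyond the 10 genes, a list of 61 other chaperone genes gave smaller changes. Of these, 57 could be tested, 7 rose and 6 fell (limma, adjusted p under 0.01), where 9.3% of all genes tested rose and 7.74% fell. In 20 of the 57 the groups did not overlap, against 22.4% of all genes tested. None moved more than 2-fold at that threshold, by limma or by limma-voom on the reads. At an adjusted p under 0.05 in limma with no minimum fold, 24 of the 57 passed, against 27.8% of all genes tested. The median log2 fold change of the 57 was 0.06, and the median size of the change was 0.15, against 0.25 over all genes tested. With the closest pairs averaged, *Hspa9* and *Hspe1* alone passed as higher and *Hsf2*, *Dnaja4* and *Hspa4l* as lower, so the other 8, *Hsp90ab1* included, no longer passed. For the small groups that follow, the same 9.3% and 7.74% of all genes are the background of each count.

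Among the other cytosolic HSP70 and HSP110 genes, 2 of 7 fell and none rose. These were *Hspa4l*, an HSP110 (log2 fold change -0.45, adjusted p = 6.73e-04, limma), and *Hspa14*, which acts at the ribosome (-0.44, adjusted p = 0.00254). Of 9 other J-domain genes, *Dnaja4* (-0.70, adjusted p = 0.00127) and *Dnajc5*, the cysteine string protein of synaptic vesicles (-0.19, adjusted p = 0.00550), fell. *Bag2*, an exchange factor that also curbs the ubiquitin ligase CHIP, was the single gene of 8 exchange factors and regulators to rise (0.64, adjusted p = 0.00765). It was at 1.53 ± 0.318 FPKM in NL and 2.40 ± 0.254 FPKM in LD (SD, n = 5 each).

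Of *Hsp90ab1* and 9 HSP90 co-chaperone genes, *Hsp90ab1* alone passed. None of the 4 other small heat shock genes that could be tested passed, and *Hspb8*, the partner of BAG3, was at 3.47 FPKM in NL and 4.82 FPKM in LD (0.44, adjusted p = 0.0396). Of 8 subunits of the cytosolic chaperonin, which folds actin and tubulin, *Cct2* (0.23, adjusted p = 0.00114) and *Cct3* (0.16, adjusted p = 0.00511) rose and *Cct5* (-0.21, adjusted p = 0.00321) fell.

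Outside the cytosol, 3 of 8 genes rose and none fell, against the 9.3% and 7.74% of all genes. They were the mitochondrial chaperone genes *Hspe1* (0.42, adjusted p = 3.08e-04), *Hspa9* (0.38, adjusted p = 2.56e-04) and *Hspd1* (0.28, adjusted p = 0.00110). *Trap1*, the mitochondrial HSP90, had a log2 fold change of 0.02 (95% interval -0.06 to 0.11, adjusted p = 0.734, limma). *Hspa5*, the HSP70 of the endoplasmic reticulum, had a log2 fold change of 0.33 (adjusted p = 0.0300, limma). With 1 retina left out in turn, *Bag2* and *Cct3* each passed in 2 of 10 fits (highest adjusted p 0.0216 and 0.0152) and *Dnajc5* in 3 of 10 (0.0177), while the other 10 genes of the list that rose or fell passed in all 10. Such small changes also depended on the scaling. The authors' factor per retina was 0.951 to 0.968 in NL and 1.04 to 1.07 in LD, and leaving it out shifted the median of all genes by 0.12 on the log2 scale. The counts of the list were then 21 higher and 3 lower, and *Hspa14* (adjusted p = 0.0126), *Cct5* (0.183) and *Dnajc5* (0.288) no longer passed. Of all 24508 genes tested, 4899 passed without the factor and 4178 with it, so the counts of the list include this general shift.

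**Figure D4:**
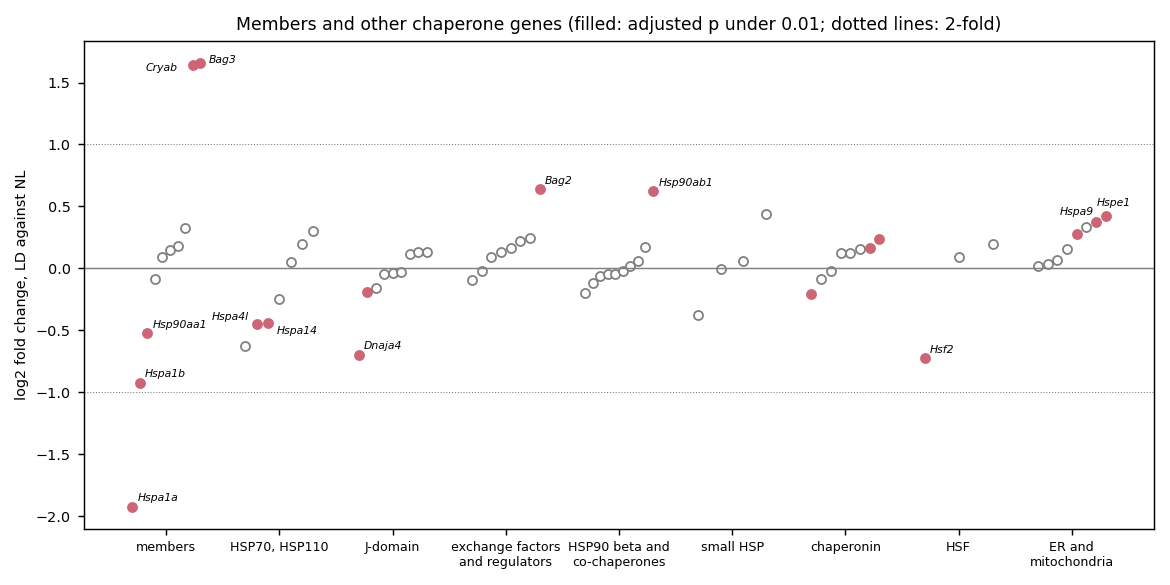
Log2 fold change of LD against NL for the 10 heat shock genes (left column) and 57 other chaperone genes by group. Filled points have an adjusted p under 0.01 in limma, and dotted lines mark 2-fold. The points beyond 2-fold are *Bag3*, *Cryab* and *Hspa1a*, whereas the other chaperone genes lie between -0.72 and 0.64.

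Markers of some cell types also differed between NL and LD. Beside each count below stand the 9.3% of all genes tested that rose and the 7.74% that fell. All 10 rod markers fell, and their summed level was 10023 to 12211 FPKM in NL and 1565 to 3061 FPKM in LD. Of 10 microglia and macrophage markers 6 rose, and their sum was 30.2 to 48.6 FPKM in NL and 61.3 to 146 FPKM in LD. Of 8 Müller glia markers, *Sox9* rose (0.79) and *Glul* fell (-2.09), with a sum of 1385 to 1614 FPKM in NL and 786 to 1118 FPKM in LD. Of 8 vascular markers *Kdr* rose, and none of 10 pigment epithelium markers passed.

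LD-4 with LD-6 and LD-1 with LD-7 were among the closest pairs named above, so the retinas of such a pair may not be independent. LD-4 and LD-6 had the lowest rod sums, at 1565 and 1674 FPKM. They also had the highest *Cryab* and *Hsp90ab1* and the lowest *Hspa1a* and *Hspa1b* sums, *Hsp90aa1* and *Hsf1*. The microglia and macrophage sum was highest in LD-1 and LD-7, where *Cryab* was the lowest of the LD retinas. The part of these cell types in the changes of the heat shock genes was not tested.

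Among 12687 protein-coding genes, *Ankrd27*, *Nat10*, *Mcu*, *Creld2* and *Ep300* followed the mean log2 level of *Hspa1a* and *Hspa1b* most closely. This mean weighs both copies alike, unlike the sum of the pair, so it also carries the uncertain split of reads between them. Likeness was Pearson's r over the 10 retinas after the mean of each group was subtracted, and it was 0.965 for *Ankrd27* and 0.945 for *Ep300*. These values describe the same libraries, which share depth and scaling. They are the highest of 12687 values over only 10 retinas, chosen for being high, and were not tested. *Hspa1a* and *Hspa1b* themselves had an r of -0.13 with each other within groups. Of the 5, *Ankrd27* also fell (log2 fold change -0.40, adjusted p = 0.00443, limma).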

How the data were processed

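RNA-seq was done on 5 NL and 5 LD neural retinas, grouped by the sample labels. Per the labels, libraries were made with an Illumina TruSeq kit; the submitters' processing notes name TopHat2 2.0.9, Bowtie2 2.0.6 and the build mm8. The study's methods give 150-base paired reads. The authors deposited FPKM values, scaled by a factor per retina. Positions are those of GRCm38: 54409 of 54532 identifiers are in GENCODE M21, and 53499 at the same position. FPKM times length gave whole reads for 100% of the values (tolerance 0.01).

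From the deposited FPKM, log2(FPKM + 0.1) was compared for genes that reached 0.1 FPKM in 5 retinas or more, in limma 3.58.1 (R 4.3.3) with an intensity trend and no block. Summed levels, shares and 7 gene pairs were tested by exact permutation of the retinas (two-sided, scipy 1.17.1), the pairs with Benjamini-Hochberg adjustment. Scripts were tested on simulated data. The genes and lists were chosen with earlier results of these data known. The genes named are the 10 members, their partners, the genes of the chaperone list that passed, and 5 genes chosen by likeness. These 5 were nearest to the mean log2 level of *Hspa1a* and *Hspa1b*. *Hspa5*, *Hspb8*, *Trap1* and the markers named were added after their values were seen. Alternatives changed the pseudocount, filter, scaling, trend, test, threshold, block, the retinas and the gene model of *Hspa1a* and *Hspa1b*. Python 3.11.15, numpy 2.4.6, pandas 2.3.3 and matplotlib 3.10.9 were used. Promoters come from RefSeq on GRCm38.p6.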

Additional observations from a re-analysis of the deposited data

Results flagged for a closer look

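*Bag3* in LD-1 was at 4.55 FPKM, while the other 4 LD retinas lay between 6.31 and 7.01 FPKM. This retina stood apart from its group by Dixon's test, 1 of 24 groups of 5 values examined, of which chance picks out about 1 in 20. LD-1 was still above every NL retina, and without it the log2 fold change was 1.76.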

How the results depend on the processing

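In 24 alternatives, the number of the 10 genes called changed was 3 except under the following. It was 6 at an adjusted p under 0.05 with no minimum fold (27.8% of all genes), 1 (*Bag3*) with a replicate block (3.30% of all genes), 2 with the closest pairs averaged (4.39%) or with the retinas of shared numbers without a block (4.82%), and 2 to 4 when 1 retina was left out. Of the other chaperone genes, 24 passed an adjusted p under 0.05 with no minimum fold, and none was called when 1 retina was left out (0 to 0). At an adjusted p under 0.01, 0 of them were higher and 3 lower under the block, and 2 higher and 3 lower with the closest pairs averaged. Of all 24508 genes tested, 1322 passed under the block and 1964 with the closest pairs averaged. The replicate block used the 4 numbers that both groups share. The samples share only a number: deviations of same-numbered retinas correlated at -0.0893 to 0.0656. Under the block *Cryab* had 1.51 (adjusted p = 0.0202) and *Hspa1a* -1.94 (adjusted p = 0.0336), and without the block in the same 8 retinas *Hspa1a* had an adjusted p of 0.0133. *Hspb1* turned to -0.00689 without NL-4 and to -0.00764 without LD-6 (range -0.00764 to 0.184 with 1 retina left out), and *Hsf1* to 0.0153 as TPM and 0.0443 without the factor per retina. *Hspa1b* passed 2-fold without LD-8 (-1.03). At an adjusted p under 0.01, *Dnajb1* was added as TPM or without the factor, *Hsp90aa1* was lost under quantile normalization, and *Bag3* and *Cryab* alone remained with the closest pairs averaged. With 1 retina left out, the *Hspa1a* and *Hspa1b* sum ranged from -1.27 to -1.06, and the differences between relatives from -1.37 to -1.20 (HSP70), -1.23 to -1.06 (HSP90), 0.15 to 0.28 (*Dnajb1*), 0.0764 to 0.205 (*Hsph1*, with an adjusted p of 0.0463 without NL-8), 1.39 to 1.64 (*Cryab*), 1.502 to 1.65 (*Bag3*) and 0.60 to 0.67 (*Hsf1*). Depth limits *Hspb1*, *Bag3* and *Hspa1a* most, with 55 reads in the lowest retina.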
